A study of Mus musculus with 6 samples.

Results

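The genes described here are 33 markers of microglia, the resident macrophages of the brain, of 31276 gene symbols in the deposited tables. They were chosen by symbol and not by any measured value, though with earlier results of these data known. The 14 homeostatic or pan-microglial genes run from Cx3cr1 to Aif1, and the 19 activated genes are those that microglia raise when they respond to damage, myelin debris or growth of white matter. A filter on low counts kept 30 of the 33, all 14 homeostatic genes and 16 of the activated ones. It removed Cst7, Itgax and Ccl4.

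Brain RNA of C57BL/6 mice was sequenced at postnatal day 14, while myelin is being laid down. The 3 wild-type (WT) samples were compared with 3 samples labelled PRMT5 olig2cre KO (KO), in which Cre recombinase under control of Olig2 targets Prmt5, the gene of an arginine methyltransferase. Olig2 marks the oligodendrocyte lineage, some neurons and some astrocytes, and microglia, which come from the yolk sac, are not of that lineage. The comparison asks how the microglial genes stand in brain in which the enzyme is targeted in that lineage. Libraries held 15089140 to 16872925 counts, and nothing in the labels says that each sample is a different animal. The p-values therefore speak only to the variation among these samples, which may be partly technical.

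Microglia depend on signalling through the receptor CSF1R, on the transcription factors PU.1 and SALL1, and on transforming growth factor beta. In the resting state they carry purine receptors and the fractalkine receptor CX3CR1. Microglia that engulf debris or myelin use the lipid receptor TREM2 and its adaptor TYROBP, and raise lysosomal proteases, osteopontin, galectins and chemokines. In the second postnatal week such cells are known from developing white matter.

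Several facts of the libraries bear on the results. Prmt5 stood at 90.8, 90.4 and 91.8 CPM in the 3 WT libraries and at 68.2, 68.4 and 81.6 CPM in the 3 KO libraries, where CPM is the count relative to the library's total, scaled for composition, and values are listed from replicate 1 to 3 throughout. Every KO library lay below every WT library (log2 fold change -0.32, SE 0.0950), with a Benjamini-Hochberg (BH) adjusted p of 0.232 in edgeR and of 0.0379 with the replicate number as a block. WT replicate 1 and KO replicates 1 and 3 held transcripts of the cerebellum (Gabra6 at 22.1 to 80.0 CPM), and the other 3 libraries held 0 counts of Gabra6. The female transcript Xist ran from 509 to 634 CPM in KO replicates 1 and 2 and WT replicate 2, and elsewhere was no higher than 0.25 CPM. All 10 genes of the myelin list fell in KO (median log2 fold change -2.62).

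The start regions of 3 members are shown first, because the results below turn on these genes. P2ry12 (chr3:59216272-59262871, minus strand) is a homeostatic gene whose groups overlapped, while Spp1 (chr5:104435118-104441050, plus strand) and Lgals3 (chr14:47367751-47386160, plus strand) are the tested members whose WT and KO ranges did not overlap. The bases are those before the RefSeq start on build GRCm38.p6, which is mm10, ended before any exon of GENCODE M21, 5′ to 3′ on the strand of the gene. The RefSeq start of Lgals3 lies inside the span that GENCODE gives the gene. Capitals mark the letters of motifs bound by PU.1.

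P2ry12, chr3:59262986-59263235: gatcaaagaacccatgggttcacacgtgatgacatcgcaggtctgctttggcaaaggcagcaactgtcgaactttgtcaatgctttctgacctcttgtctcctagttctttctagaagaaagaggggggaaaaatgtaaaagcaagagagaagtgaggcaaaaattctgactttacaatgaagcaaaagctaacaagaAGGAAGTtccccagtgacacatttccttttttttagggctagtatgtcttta

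Spp1, chr5:104434861-104435110: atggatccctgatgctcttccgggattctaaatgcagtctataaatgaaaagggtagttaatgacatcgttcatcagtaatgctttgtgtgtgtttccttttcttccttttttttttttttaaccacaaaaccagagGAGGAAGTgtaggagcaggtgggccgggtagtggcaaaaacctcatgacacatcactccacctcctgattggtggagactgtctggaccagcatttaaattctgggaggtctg

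Lgals3, chr14:47373610-47373812: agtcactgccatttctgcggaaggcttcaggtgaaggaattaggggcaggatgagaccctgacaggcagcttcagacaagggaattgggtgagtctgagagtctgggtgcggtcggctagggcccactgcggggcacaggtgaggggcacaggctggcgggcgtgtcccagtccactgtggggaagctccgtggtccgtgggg

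The motifs searched, on both strands, were GAGGAAGT, its shorter forms AGGAAGT and GAGGAA for PU.1, and TGACTCA for AP-1, a factor of activated cells. The 3 PU.1 forms overlap one another. The RefSeq table held 28 windows of 300 bases for 24 of the 33 members. AGGAAGT was in 6 of these 28 windows (21.4%), those of P2ry12, Fcrls, Sall1, Spp1, Cst7 and Lyz2, and in 9.35% of all 32851 windows. GAGGAAGT was in 1 of the 28 windows, that of Spp1, and in 3.20% of all. GAGGAA was in 12 of the 28 (42.9%) and in 28.3% of all, and TGACTCA in 3 of the 28, those of Cd68, Gpnmb and Itgax, and in 5.20% of all. The stretch printed for Lgals3 held none of these motifs. A match is a string of letters and not a measured site.

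None of the 30 tested members passed the test between KO and WT, while myelin genes in the same libraries fell several-fold. With edgeR's quasi-likelihood test and BH adjustment over 16592 genes, 0 of 14 homeostatic and 0 of 16 activated members were called at an adjusted p under 0.05, against 1.20% of all tested genes (0.241% called higher in KO). DESeq2 also called 0 of the 30, against 1.89% of all genes, and limma-voom called 0, against 1.06%. At an unadjusted p under 0.05 there were 2 of the 30, Spp1 and Lgals3, against 9.67% of all genes. The ranges of the 3 WT and the 3 KO libraries did not overlap for the same 2 genes, both with KO above WT, against 16.0% of all tested genes in either direction and 8.02% with KO above WT. Over all 30 members both shares are below the background. Both genes are among the 16 activated members, where they make up 12.5%, above the 9.67% and the 8.02% but below the 16.0%. KO was higher in every same-numbered pair for 9 of the 30 (Cx3cr1, Siglech, Fcrls, P2ry13, Spp1, Lgals3, Csf1, Trem2 and Lyz2), against 19.3% of all tested genes. That share of members is above the background. KO was lower in every pair for 1, Sall1, against 17.7%. In bulk tissue, fewer cells of a type and less RNA per cell cannot be told apart.

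**Figure D1:**
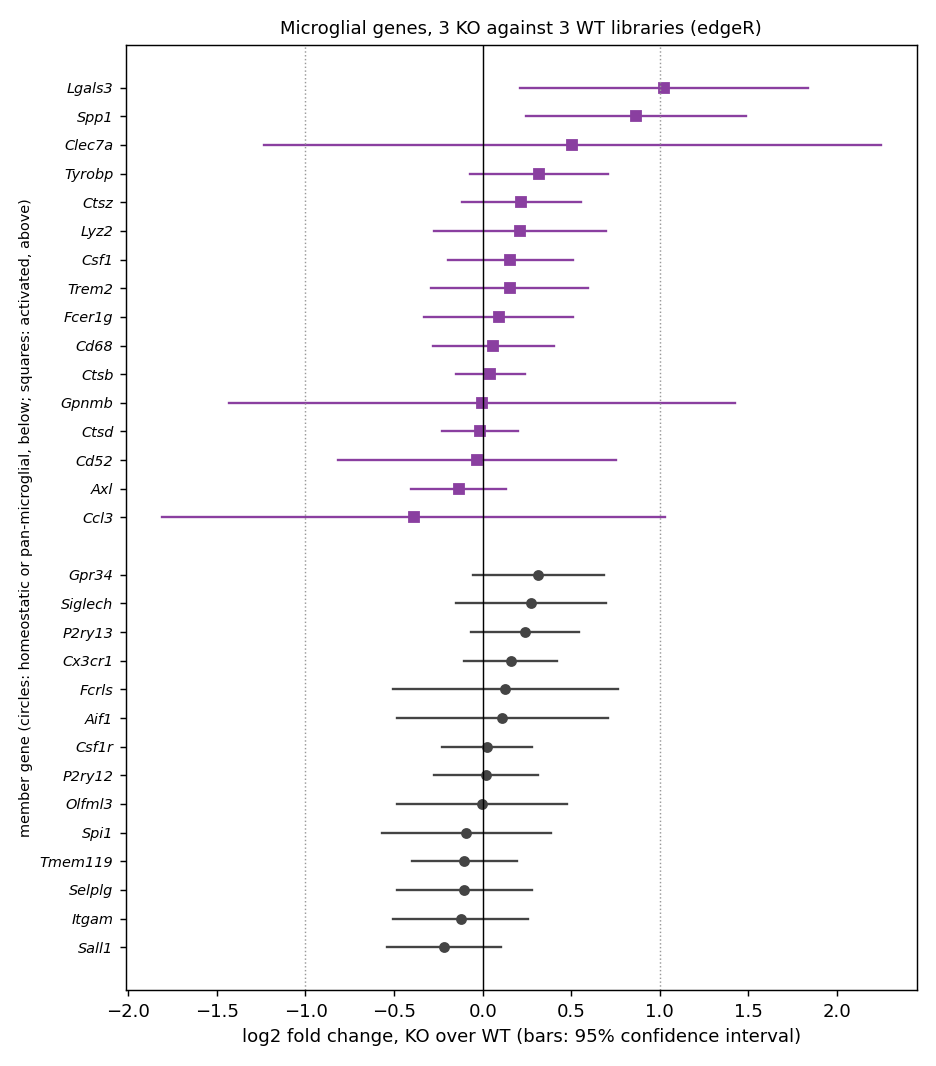
Log2 fold change of KO over WT for the 30 tested members (x axis) with 95% confidence intervals from edgeR, homeostatic or pan-microglial genes as circles and activated genes as squares; dotted lines mark a change of 2-fold in either direction. All 14 homeostatic intervals lie between the dotted lines and include 0, and only those of Spp1 and Lgals3 leave 0 out.

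The homeostatic genes had a median log2 fold change of 0.021, with 8 values above 0 and 6 below, beside a median of 0.013 over all tested genes. Values ran from -0.22 for Sall1 to 0.31 for Gpr34. The 95% intervals of all 14 lay within a 2-fold change in either direction, and those of 10 within a 1.5-fold change. All 14 intervals included 0.

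The purine receptors come first among the homeostatic genes. P2ry12 encodes the ADP receptor that steers microglial processes to sites of injury. Its level was 55.8, 76.8 and 62.8 CPM in WT and 63.2, 75.7 and 58.7 CPM in KO. The groups overlapped throughout, and replicate 2 was the highest library in each (log2 fold change 0.017, 95% interval -0.28 to 0.31). P2ry13, the neighbouring ADP receptor gene (chr3:59207892-59210882), stood at 14.5, 16.9 and 16.1 CPM in WT and at 19.2, 20.6 and 16.3 CPM in KO. It was higher in KO in every same-numbered pair, but KO replicate 3 lay within the WT range (log2 difference 0.24, SE 0.138, BH-adjusted p = 0.611, edgeR). Gpr34 (chrX:13632089-13640858), a receptor for lysophosphatidylserine, stood at 7.62, 8.38 and 10.2 CPM in WT and at 10.8, 11.8 and 9.97 CPM in KO. WT replicate 3 exceeded KO replicate 3, so the groups overlapped (log2 difference 0.31, SE 0.168, BH-adjusted p = 0.580, edgeR).

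Receptors for chemokine and growth signals overlapped between groups as well. Cx3cr1, the receptor for the neuronal chemokine fractalkine, stood at 37.0, 48.7 and 42.7 CPM in WT and at 44.8, 51.9 and 46.4 CPM in KO. It was higher in KO in each pair, within overlapping ranges (log2 fold change 0.16, 95% interval -0.10 to 0.42). Csf1r, whose signalling keeps microglia alive, stood at 67.1, 87.5 and 86.3 CPM in WT and at 74.1, 85.6 and 85.3 CPM in KO. In both groups replicate 1 was the lowest library (log2 fold change 0.025, 95% interval -0.23 to 0.28). Reads of Csf1r and of Cx3cr1 may be shared with genes on the opposite strand, Hmgxb3 and Gm33858.

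Of the transcription factor genes, Spi1, which encodes PU.1, measured 4.31 ± 0.326 CPM in WT against 4.04 ± 0.600 CPM in KO (SD, n = 3). Sall1 (chr8:89027235-89044162), which holds microglia in their resident identity, stood at 26.6, 30.3 and 27.9 CPM in WT and at 20.6, 29.5 and 22.7 CPM in KO. It was the homeostatic member that was lower in KO in every pair, although KO replicate 2 lay inside the WT range (log2 difference -0.22, SE 0.147, BH-adjusted p = 0.670, edgeR).

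The remaining homeostatic genes encode surface and secreted proteins and the cytoskeletal protein IBA1. Tmem119, a membrane protein used to tell microglia from blood-borne macrophages, measured 19.2 ± 1.51 CPM in WT against 17.9 ± 2.02 CPM in KO (SD, n = 3). Siglech, a sialic acid-binding lectin, stood at 9.20 ± 1.62 and 11.1 ± 1.99 CPM, and Itgam, the CD11b integrin chain, at 19.5 ± 2.64 and 17.9 ± 3.84 CPM. Selplg, the ligand of P-selectin, had 33.7 ± 8.53 and 31.4 ± 2.82 CPM, and Aif1, the gene of IBA1, 3.60 ± 1.09 and 3.90 ± 0.461 CPM. Each of these differences between means was smaller than the larger of the 2 SDs, and none was called with the replicate block. Fcrls, an Fc receptor-like gene, ran from 10.4 to 22.9 CPM in WT and from 13.5 to 23.7 CPM in KO, with replicate 3 the highest in both groups. Olfml3, a secreted protein gene, ran from 15.5 to 28.9 CPM in WT and from 18.7 to 26.8 CPM in KO, with replicate 1 the lowest in both.

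**Figure D2:**
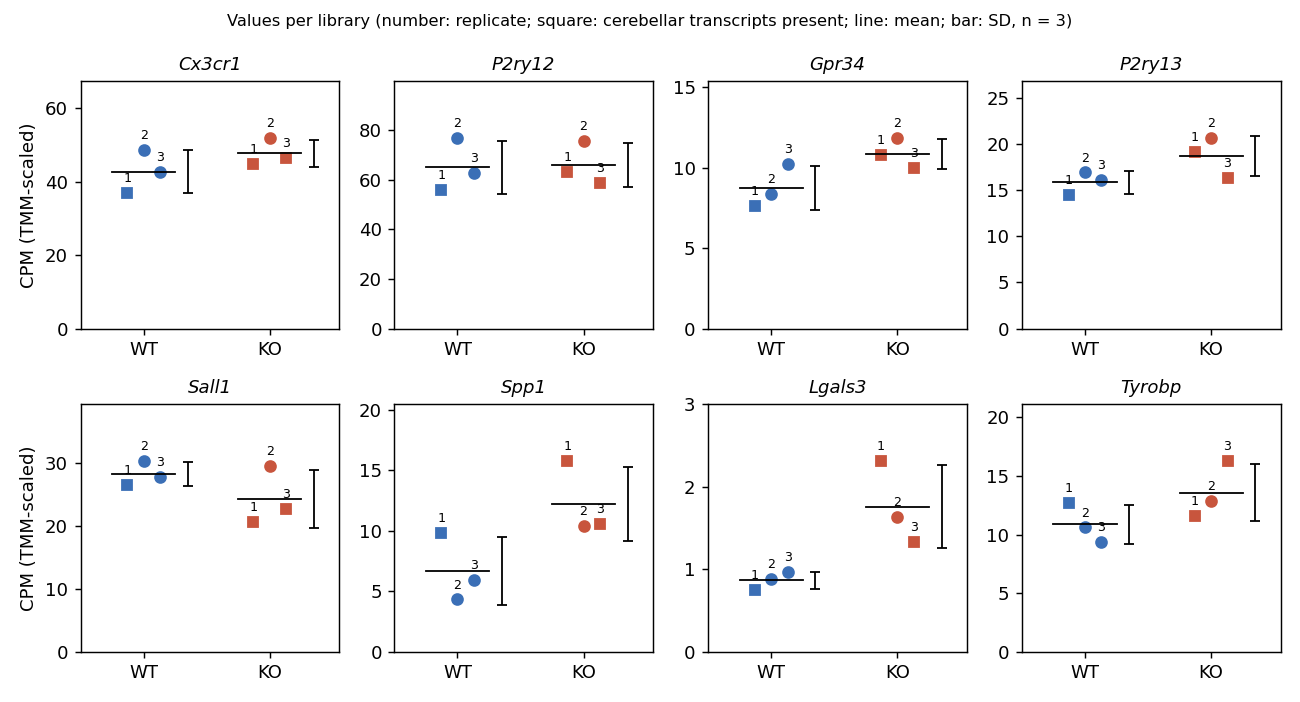
CPM per library (y axis, from 0) for 8 members in WT (blue) and KO (red), with the replicate number beside each point, squares for libraries with cerebellar transcripts, a line for the mean and a bar for the SD (n = 3). The groups separate for Spp1 and Lgals3 and overlap for the other 6 genes.

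The activated genes had a median log2 fold change of 0.12, with 11 of 16 values above 0. Spp1 encodes osteopontin, a secreted phosphoprotein made by microglia of developing white matter and, in brain, also by some neurons. Its level was 9.81, 4.33 and 5.96 CPM in WT and 15.7, 10.4 and 10.5 CPM in KO. KO was higher in each pair, and the lowest KO library lay just above the highest WT library. The log2 fold change was 0.87 (SE 0.281, 95% interval 0.25 to 1.49), and edgeR gave it a BH-adjusted p of 0.295 and DESeq2 one of 0.0804.

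With the replicate number as a block in the fit, Spp1 was called, with a log2 fold change of 0.90 (SE 0.173, edgeR BH-adjusted p = 0.00336). The pairing behind this block was taken from these data and not from the labels. Spp1 was then the 1 called member of 30, against 3.41% of all tested genes called and 1.03% called higher in KO. Spp1 was also fitted apart in libraries with and without cerebellar transcripts. Among the libraries with cerebellar transcripts alone (KO replicates 1 and 3 against WT replicate 1) its log2 fold change was 0.42 (BH-adjusted p = 0.9999 in edgeR). Among those without (KO replicate 2 against WT replicates 2 and 3) it was 1.01 and was called (0.0117), in a fit that called 6.13% of all genes. Each of these fits takes the spread of the side with 1 library from the other side. With the presence of cerebellar transcripts as a term the value was 0.71 (edgeR BH-adjusted p = 0.234), and the genotype difference of Spp1 with these transcripts minus that without was -0.59 (SE 0.449, edgeR BH-adjusted p = 0.9999). This interaction called 0 of all 16592 genes, with 411 at an unadjusted p under 0.05. Reads of Spp1 may be shared with the predicted gene Gm42793 on the same strand.

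Lgals3 encodes galectin-3, a sugar-binding protein of phagocytes that many other cells make too. It stood at 0.75, 0.88 and 0.96 CPM in WT and at 2.31, 1.64 and 1.33 CPM in KO, from 126 counts over all 6 libraries. All 3 KO libraries exceeded all 3 WT libraries (log2 difference 1.02, SE 0.368, BH-adjusted p = 0.370, edgeR, and 0.238 with the replicate block). Its 95% interval covers changes from 1.16-fold to 3.57-fold.

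TREM2 and its adaptor TYROBP carry the switch to the phagocytic state. Trem2 stood at 6.75, 9.19 and 8.002 CPM in WT and at 6.87, 10.3 and 9.40 CPM in KO, with the same order of replicates in both groups. Tyrobp (chr7:30413760-30417585) stood at 12.7, 10.6 and 9.39 CPM in WT and at 11.6, 12.9 and 16.3 CPM in KO. KO replicate 3 was the highest library, and WT replicate 1 lay inside the KO range (log2 difference 0.32, SE 0.176, BH-adjusted p = 0.598, edgeR). Fcer1g, an adaptor of the same kind, stood at 8.73 ± 0.689 and 9.31 ± 2.01 CPM (SD, n = 3). Of 7 tested genes of the pathway downstream (Syk, Plcg2, Inpp5d, Vav1, Ptpn6, Card9 and Lcp2), 0 were called by edgeR, with the block or by DESeq2. The median was 0.049, and 1 of the 7 had an unadjusted p under 0.05, against 9.67% of all genes. This was Vav1, a guanine exchange factor gene (log2 difference 0.58, SE 0.252, BH-adjusted p = 0.491, edgeR). The highest log2 fold change among the 7 was 0.63. Ranges did not overlap for 2 of the 7, both with KO above WT, against 8.02% of all tested genes. Hcst, another adaptor, was removed by the filter.

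Ctsb and Ctsd, genes of lysosomal proteases, had the smallest SEs of the members. Ctsb measured 498 ± 12.97 CPM in WT against 513 ± 18.1 CPM in KO, and Ctsd 332 ± 11.02 and 329 ± 30.6 CPM (SD, n = 3). Their 95% intervals on the log2 scale were -0.15 to 0.24 and -0.23 to 0.20. Many cell types of the brain make both cathepsins. Reads of Ctsb may be shared with Fdft1 on the opposite strand and those of Ctsd with Gm49369. Ctsz, a cathepsin more enriched in microglia, stood at 25.5, 26.8 and 26.5 CPM in WT and at 23.4, 35.4 and 32.9 CPM in KO. KO replicate 1 was below and KO replicates 2 and 3 above all WT libraries. Reads of Ctsz may be shared with Nelfcd on the opposite strand. Cd68, a lysosomal membrane protein of phagocytes, stood at 15.5 ± 2.76 and 16.2 ± 0.858 CPM, and Lyz2, the macrophage lysozyme, at 3.79 ± 0.637 and 4.39 ± 0.267 CPM. Its near copy Lyz1 had at most 5 counts in any library.

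Of 15 further lysosomal genes, 0 were called by edgeR, with a median of -0.10. Scarb2, a receptor that sorts an enzyme to lysosomes, stood at 53.7, 45.9 and 56.9 CPM in WT and at 42.4, 31.4 and 33.3 CPM in KO, with no overlap. Its log2 fold change was -0.55 (SE 0.133, edgeR BH-adjusted p = 0.112), and it was called with the replicate block (0.0027) and by DESeq2 (0.0151). At an unadjusted p under 0.05 in edgeR there were 2 of the 15, Scarb2 and Lamp1, against 9.67% of all genes. Ranges did not overlap for 3 of the 15, all with KO below WT, against 7.99% of all tested genes.

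Growth factor, receptor and surface genes of the activated list overlapped between groups. Csf1, a ligand of CSF1R, stood at 15.3 ± 2.50 and 16.98 ± 2.07 CPM (SD, n = 3), and was higher in KO in every pair. Axl, a receptor for phosphatidylserine-bound ligands that other brain cells also make, stood at 41.5 ± 3.74 and 37.7 ± 4.87 CPM. Cd52, a small surface glycoprotein gene, had 1.66 ± 0.427 and 1.62 ± 0.476 CPM. Of 9 tested ligands and partners, among them Il34 and Cx3cl1, ligands of CSF1R and CX3CR1, and Gas6, a ligand of AXL, 0 were called by edgeR, with the block or by DESeq2, and 0 had an unadjusted p under 0.05. Their median was 0.047. The smallest p was that of Gas6, at 97.8 ± 5.14 and 107.9 ± 6.02 CPM (SD, n = 3).

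The genes most specific to disease-associated microglia were near the limit of detection in both groups. Cst7, cystatin F, had 4 counts in each WT library and 0, 2 and 0 counts in KO replicates 1 to 3. Itgax, CD11c, had 6, 2 and 6 counts in WT and 8, 14 and 4 in KO. Ccl4 had 18, 1 and 4 counts in WT and 10, 8 and 0 in KO. These 3 genes were not tested. In the fit without a filter none of them was called, and the smallest edgeR BH-adjusted p among them was that of Cst7 (0.685). Clec7a, dectin-1, had 54 counts in all and stood at 0.999, 0.41 and 0 CPM in WT and at 0.73, 0.76 and 0.51 CPM in KO. Gpnmb, a glycoprotein of lipid-laden macrophages, ran from 0.27 to 1.25 CPM in WT and from 0.25 to 1.64 CPM in KO. Ccl3, a chemokine, stood at 2.31, 1.89 and 0.48 CPM in WT and at 1.10, 2.14 and 0.32 CPM in KO, with replicate 3 the lowest in both groups. The 95% intervals of Clec7a, Gpnmb and Ccl3 reached past 2-fold in both directions, so a change of that size was not resolved in these genes.

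Levels of different genes were compared per length, as CPM per kilobase of GENCODE M21 exons (RPKM). The counts were summed over UCSC known gene exons, so the lengths may differ from those counted and the order is approximate. In WT, Ctsd (156 ± 5.18) and Ctsb (105 ± 2.73) led, followed by P2ry12 (26.7 ± 4.37 RPKM; SD, n = 3). Tyrobp (19.3 ± 2.95), Ctsz (18.2 ± 0.441), Selplg (18.2 ± 4.60) and Csf1r (16.4 ± 2.33) came next and did not differ beyond their spread. At the low end stood Cst7, Clec7a, Gpnmb and Itgax, at 0.257, 0.205, 0.192 and 0.0670 RPKM. The lowest homeostatic gene was Spi1, at 2.12 RPKM. In KO, P2ry12 stood at 27.0 ± 3.60 and Gpnmb at 0.194 ± 0.156 RPKM (SD, n = 3).

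The homeostatic genes were also compared between libraries with and without cerebellar transcripts. WT replicate 1 was the lowest library for 10 of the 14, and their summed level was 308 CPM there, 410 and 392 CPM in WT replicates 2 and 3, and 343, 403 and 381 CPM in KO replicates 1 to 3. With genotype in the model, 13 of the 14 had values below 0 for libraries with over libraries without these transcripts, with a median log2 difference of -0.24, beside -0.0021 over all tested genes. The exception was Spi1 (0.22). The median of the 14 log2 deviations from the mean of the 6 libraries was -0.27 in WT replicate 1 and -0.12 in KO replicate 1. In KO replicate 3, which also holds these transcripts, it was 0.088, near the 0.096 to 0.12 of the libraries without. KO replicate 3 was the highest library for 3 of the 14 and the lowest for 1. The low values thus lay mostly in the libraries numbered 1. Of the 14, 0 were called in this comparison, against 0.729% of all tested genes. At an unadjusted p under 0.05 there were 6 (P2ry12, Itgam, Olfml3, Cx3cr1, Sall1 and Csf1r), against 8.53% of all genes. Itgam stood at 14.6 to 16.97 CPM in the libraries with these transcripts and at 19.98 to 22.1 CPM in those without, and the ranges of Csf1r and Sall1 did not overlap either. These 3 of the 14 compare with 5.97% of all tested genes whose range lay wholly lower in the libraries with these transcripts. Reads of Itgam may be shared with Gm49368 on the same strand. This contrast was examined after the library values had been seen. Of the activated members, 9 of 16 had values below 0 (median -0.036), and Spp1 had a value above 0 (0.62, SE 0.222, edgeR BH-adjusted p = 0.383). Values below 0 were not particular to the homeostatic genes. They were found for 18 of 20 further core microglial genes (median -0.17) and 6 of 8 border macrophage genes (median -0.13), both lists described below.

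With the presence of cerebellar transcripts as a term, the median genotype difference of the homeostatic genes was 0.16, and 11 of the 14 had values above 0. Of the 30 members, 0 were called by edgeR, against 1.38% of all genes. At an unadjusted p under 0.05 there were 4 (Cx3cr1, Gpr34, Spp1 and Lgals3), against 10.8% of all genes. Within the libraries with cerebellar transcripts the median of the 14 was 0.29, and within those without it was 0.0014. Only WT replicate 1 stands for WT in the former.

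**Figure D3:**
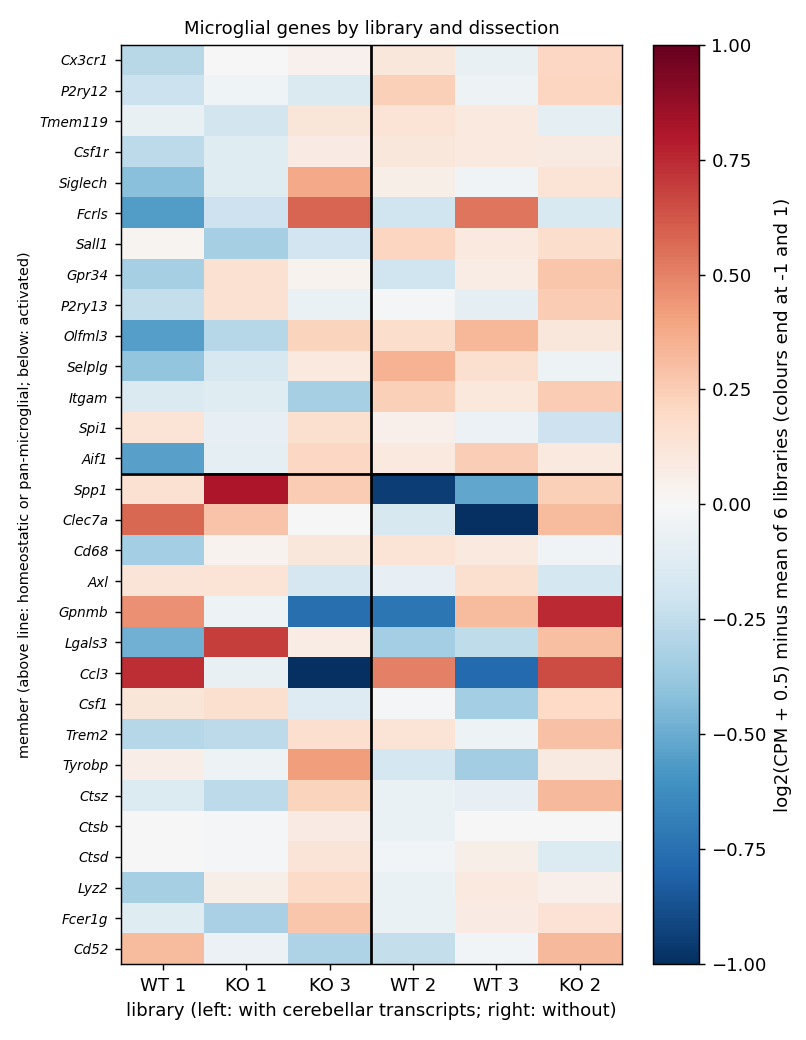
Log2(CPM + 0.5) minus the mean of the 6 libraries (colour, ending at -1 and 1) for the 30 tested members (rows) in each library (columns), with the libraries that hold cerebellar transcripts left of the line. Most homeostatic rows are blue in WT 1 and KO 1, and the Spp1 row is bluest in WT 2 and reddest in KO 1.

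Of 20 further core microglial genes, 0 were called by edgeR, with the block or by DESeq2, and the median was 0.058. At an unadjusted p under 0.05 in edgeR there were 2 of the 20, C1qc and Ikzf1, near the share of 9.67% of all genes. C1qc, a chain of complement C1q, stood at 50.3, 47.9 and 49.2 CPM in WT and at 58.7, 59.3 and 53.6 CPM in KO (log2 difference 0.22, SE 0.0893, BH-adjusted p = 0.446, edgeR). Ikzf1, a transcription factor gene of blood-derived lineages, stood at 3.47 ± 0.278 and 4.77 ± 0.0846 CPM (SD, n = 3), with a log2 fold change of 0.46 (edgeR BH-adjusted p = 0.509).

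Among 12 tested further genes linked to activation, 1 fell and 0 rose in edgeR, against 1.20% of all tested genes called, with a median of 0.16. With the replicate block 2 of the 12 were called, against 3.41%. Unadjusted p in edgeR was under 0.05 for 3 of the 12, against 9.67% of all genes. Ranges did not overlap for 3, of which 2 had KO above WT, against 16.0% in either direction. Cd9, a tetraspanin that oligodendrocytes also make, fell from 82.5 ± 13.6 to 48.2 ± 3.03 CPM (SD, n = 3; log2 difference -0.77, SE 0.121, BH-adjusted p = 0.0091, edgeR). Apoe, a lipid carrier made by astrocytes as well as microglia, stood at 1447, 1422 and 1409 CPM in WT and at 1675, 1768 and 1743 CPM in KO. It was higher in every KO library (log2 difference 0.28, SE 0.0907, BH-adjusted p = 0.299, edgeR) and was called with the replicate block (0.0427). Igf1 and Lpl, growth factor and lipase genes of developmental white matter microglia, had values of -0.11 and 0.23 with overlapping ranges. Tnf, Il1b, Ccl2 and Lilrb4 were removed by the filter.

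Markers of cells at the brain surface were measured in the same libraries. Of 10 meningeal fibroblast genes, 5 rose (Col1a1, Col1a2, Col3a1, Lum and Pcolce), against 0.241% of all tested genes called higher in KO. With the replicate block Dcn was called too, against 1.03% of all genes called higher. Of the 10, 7 had values above 0 and 3 below (lowest log2 fold change -0.20). The list's summed level was 151 to 163 CPM in WT and 242 to 338 CPM in KO. Col3a1, a fibrillar collagen gene, stood at 23.5 ± 4.46 and 82.0 ± 18.0 CPM (SD, n = 3; log2 fold change 1.80, edgeR BH-adjusted p = 0.000368). Of 8 tested border macrophage genes, all had values above 0 (median 0.43), and 0 were called by edgeR, with the block or by DESeq2. KO lay above WT with no overlap for 3 of the 8, against 8.02% of all tested genes. At an unadjusted p under 0.05 in edgeR there was 1 of the 8, against 9.67% of all genes. This was Stab1, a scavenger receptor gene (13.5 ± 1.86 and 16.8 ± 0.238 CPM; SD, n = 3). The summed level of all 11 border macrophage genes was 23.0 to 32.01 CPM in WT and 33.6 to 36.3 CPM in KO. Spp1 and Lgals3, which macrophages and fibroblasts can also express, were higher in the same libraries, and the part of these cells in their values was not tested.

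Markers of blood-borne cells had few reads. The 10 monocyte and neutrophil genes summed to 1.69 to 1.89 CPM in WT and 1.32 to 4.002 CPM in KO, with S100a9 at 24 counts in KO replicate 3. The 6 lymphocyte genes summed to 0.41 to 1.02 and 0.85 to 1.51 CPM. Of these 16 genes 1, Ly6c2, passed the filter (log2 fold change -0.063). The 6 cerebellar genes had a median of 0.44 between KO and WT with 0 called by edgeR.

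**Figure D4:**
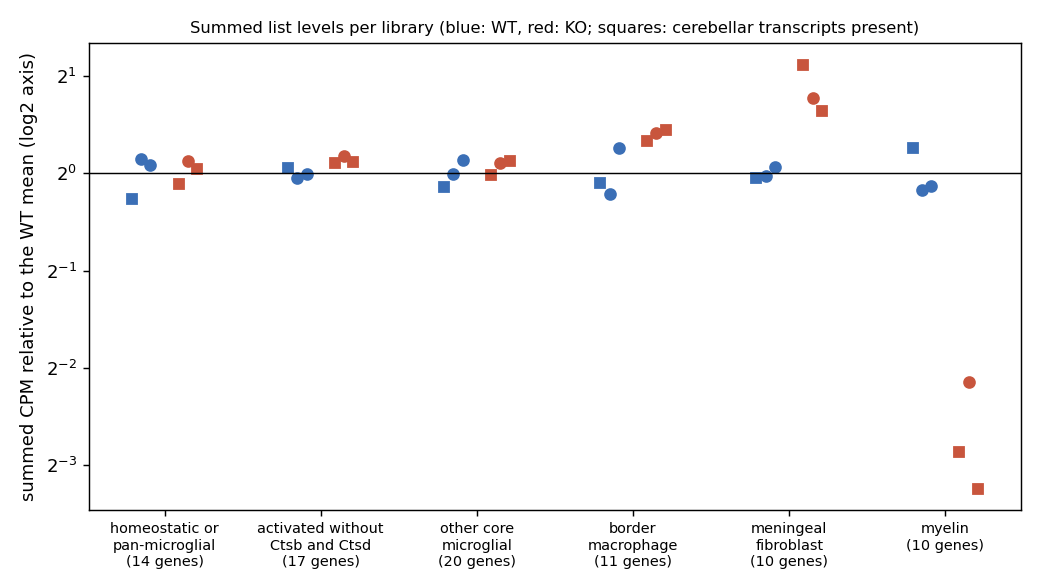
Summed CPM of 6 gene lists per library relative to the WT mean of the list (log2 axis), WT in blue, KO in red and squares for libraries with cerebellar transcripts. Homeostatic and other core microglial sums overlap between groups, border macrophage and meningeal sums lie higher in KO, and myelin sums lie far lower.

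The summed level of the 19 activated genes lay mostly in Ctsb and Ctsd and overlapped between groups (945 to 993 CPM in WT and 969 to 1050 CPM in KO). Without these 2 genes, a choice made after the values were seen, the other 17 summed to 148, 139 and 142 CPM in WT and to 154, 162 and 155 CPM in KO. The KO sums were all above the WT sums, with a mean of 157 ± 4.13 CPM in KO and of 143 ± 4.77 CPM in WT (SD, n = 3). Spp1, which is among the 17, is needed for the sum of KO replicate 1 to exceed that of WT replicate 1. Spp1 differed by more between these libraries (9.81 and 15.7 CPM) than their sums did. The higher mean sum in KO did not come from Spp1 alone, whose own mean rose from 6.70 to 12.2 CPM. Of the 14 tested genes among the 17, 10 had log2 fold changes above 0, Spp1 included, and 4 below. No test was made of this trimmed list.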

How the data were processed

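RNA from 6 mouse brain samples was sequenced from TruSeq mRNA libraries with paired reads of 150 bp, per the labels' protocols. The submitters' processing notes name FastQC 0.11.2, Trimmomatic 0.32, STAR 2.3.0e, featureCounts 1.5.0, DESeq2 and mm10. The authors deposited whole-number read counts for each gene, summed over UCSC known gene exons as the deposited files are named. They also deposited a normalized signal, which equalled the count divided by DESeq2's size factor of the library and was used for this check alone. The strand setting and the treatment of reads with several mapping places are not given in the sources used here, so overlapping genes are named as possibly sharing reads.

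Counts were tested in R 4.3.3 with edgeR 4.0.16 (TMM scaling, filterByExpr, glmQLFit, glmQLFTest) over all 16592 genes that passed the filter, with Benjamini-Hochberg adjustment, and with DESeq2 1.42.0 and limma-voom (limma 3.58.1) as alternatives. The edgeR fits with and without the replicate block were tested on simulated data, and DESeq2 and limma-voom were not. The simulated libraries were independent, without pairs or differences of sex or cerebellar transcripts, so the block was not tested on paired data. Standard errors (SE) and 95% intervals come from the quasi-likelihood F statistic. Members with an unadjusted p under 0.05 or called with the block, and the 3 of smallest p in each member list, are given for every library, as are others described by role. From each context list the called members or the member of smallest p are given, with some others. The members and lists were chosen with earlier results of these data known.

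The labels number the samples 1 to 3 in both groups. Same-numbered samples deviated together from their groups' means (r of 0.351, 0.334 and 0.177 across genes), all over the limit of 0.1, so the numbers were taken as pairs. WT replicate 3 with KO replicate 2 also passed this limit (r of 0.1002), so the limit alone does not single out same-numbered pairs. The other unlike-numbered pairs had r of 0.0284 or lower. The pairing by number rests on the data and not on the labels. Pairs of libraries within a group differed by 6.75 to 27.4 times the chi-square of counting noise, so none was treated as a duplicate. The alternatives were 19 fits with another scaling, filter, test or covariate, within 1 sex, within libraries with or without cerebellar transcripts, or without 1 library. The symbols Vsir and Lilrb4a were matched by older names.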

Additional observations from a re-analysis of the deposited data

How the results depend on the processing

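The count of homeostatic members called stayed at 0 under all 19 alternatives. The count of activated members called was 0 except with the replicate block and among the libraries without cerebellar transcripts alone, where it was 1, Spp1. The replicate block changed the call of no other member. Over all genes the count of calls was 199, and 314 with DESeq2, 566 with the block, 129 with the sex term, 1017 among libraries without cerebellar transcripts, 54 among female libraries and 100 to 305 without 1 library. The median log2 fold change of the homeostatic members was 0.29 among libraries with cerebellar transcripts alone, and that of the activated members 0.37 among those without. The cause of these shifts was not tested.

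Of 569 member values under the alternatives, 2 were called, both of Spp1, and 74 changed sign, none of them called, in 22 of the 30 members. For these members the sign of the difference is not settled. Spp1 and Lgals3 kept values above 0 in every alternative. For both genes every KO library lay above every WT library, so fits to some of these libraries could hardly give another sign. The constant sign therefore adds nothing to that separation. The value of Spp1 without 1 library ran from 0.63 to 1.25 (edgeR BH-adjusted p from 0.0618, without WT replicate 1, to 0.744, without WT replicate 3). The value of Spp1 was 1.59 among female libraries (KO replicates 1 and 2 against WT replicate 2 alone). Among male libraries it was 0.42 (KO replicate 3 alone against WT replicates 1 and 3). The values of Lgals3 without 1 library ran from 0.78 to 1.19 (edgeR BH-adjusted p 0.414 to 0.728). The interaction with sex called 0 genes in edgeR, with 652 at an unadjusted p under 0.05. Lgals3, Ccl3, Clec7a, Gpnmb, Itgax, Ccl4 and Cst7 had at most 130 counts over the 6 libraries.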
